A study of Torulaspora delbrueckii with 17 samples.

Results

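Binding of the origin protein Orc1 and the silencing protein Kos3 was described along the 80 kb of each chromosome arm that begins 20 kb from the end, in the budding yeast Torulaspora delbrueckii. All peaks of chromosomes 1 to 7 were taken whose midpoint lay at least 20 kb and less than 100 kb from the nearer end, except those in a stretch of chromosome 5 (68 to 82 kb) and a stretch of chromosome 7 (31 to 41 kb). Of 5717 peaks in 15 lists, 343 met this rule, 286 from Orc1 and 57 from Kos3. They fell on 1096 kb of 14 chromosome arms. Another 1681 peaks lay 100 kb or more from the ends, on 6981.5 kb, and served for comparison as the interior.

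Cells of every group were grown in YPD at 30 °C and cross-linked with 1% formaldehyde for 1 hour, and Orc1 was precipitated through a MYC tag or Kos3 through a V5 tag. Orc1 lists came from wild type (strain LRY3204, and LRY3211, which also carries Kos3-V5), a strain labelled sir2 (LRY3206, 2 libraries), a strain labelled kos3 (LRY3205, 1 library), a strain labelled orc1bah with Kos3-V5 (LRY3212, 2 libraries) and 2 strains labelled orc1P179A with Kos3-V5 (LRY3215 and LRY3216, 1 library each). Kos3 lists came from the wild-type, orc1bah and orc1P179A strains with both tags (LRY3211, LRY3212, LRY3215 and LRY3216), 2 libraries per genotype. The 2 inputs came from an untagged strain, JRY10156. The series calls the libraries of a pair technical replicates, so SDs and p-values measure the spread between these libraries, which may be technical. Per the file names, the first input served the first wild-type, the sir2 and the kos3 Orc1 libraries, and the second input served all others. Those others are also all the libraries of strains with Kos3-V5, so input and tag cannot be told apart. Peak names in some lists give another input number, or another replicate number, than the file names and labels. Here the input follows the file names and the replicate number the labels.

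Orc1 is the largest subunit of the origin recognition complex, which marks the sites where replication can start. Its BAH domain binds nucleosomes, and in Saccharomyces cerevisiae the silencing protein Sir1 contacts this domain at the silencers of the mating-type loci. Kos3 belongs to the Sir1-related family, and Sir2 is the histone deacetylase of silent chromatin. The allele names orc1bah and orc1P179A refer to the BAH domain and to a substitution within Orc1. Silent chromatin in budding yeasts is best known at the mating-type loci and near telomeres, so the arms described here lie between the telomere-proximal regions and the chromosome interior.

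In Orc1 lists the peaks numbered 38 and 37 in the wild-type pair, 34 and 30 in the sir2 pair, 31 in the kos3 list, 30 and 33 in the orc1bah pair and 26 and 27 in the orc1P179A pair. In Kos3 lists they numbered 19 and 11 in the wild-type pair, 4 and 8 in the orc1bah pair and 6 and 9 in the orc1P179A pair. Every Orc1 list held more of these peaks than every Kos3 list. Whole lists differed in the same way, with 223 to 274 Orc1 and 28 to 100 Kos3 peaks on chromosomes 1 to 7. The share at 20 to 100 kb was 11.3 to 14.3% for Orc1 and 11 to 20.4% for Kos3. Over the 3 genotypes with both precipitations, a Kos3 list held 22.3 fewer peaks and covered 31.4 kb less than an Orc1 list (each adjusted p = 0.0185, exact permutation test within genotypes, 12 libraries; the unadjusted p of 0.00926 is the smallest the design allows).

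**Figure D1:**
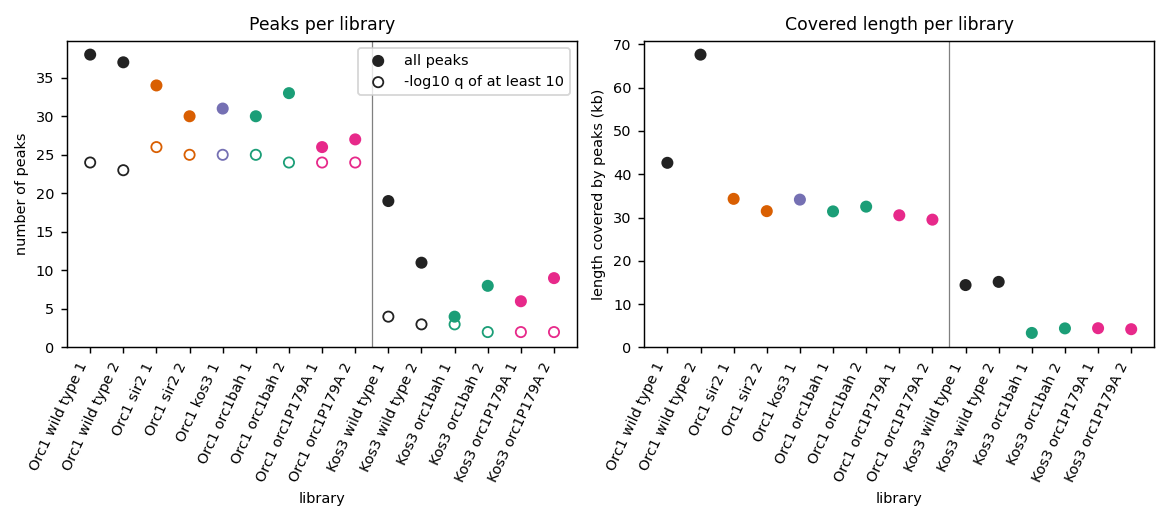
Number of peaks 20 to 100 kb from chromosome ends (left; filled points, all peaks; open points, those at or above a −log10 q of 10) and summed peak length in kb (right) in each of the 15 libraries, coloured by genotype; the grey line separates Orc1 from Kos3. The open points of the Orc1 lists lie between 23 and 26, whereas the filled points fall from 38 to 26.

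Both orc1 alleles had fewer peaks than wild type in both precipitations. The sir2 (34 and 30) and kos3 (31) Orc1 lists also lay below both wild-type lists (38 and 37). The whole lists of the alleles were shorter as well. On chromosomes 1 to 7 at any distance, Orc1 peaks numbered 266 and 274 in wild type and 223 to 248 in the alleles, and Kos3 peaks 93 and 100 against 28 to 47. The share of a list that lay 20 to 100 kb from the ends was 14.3% and 13.5% against 11.3 to 13.3% for Orc1, and 20.4% and 11% against 14.3 to 19.1% for Kos3. Orc1 peaks averaged 37.5 ± 0.707 in the wild-type pair (SD, n = 2), 31.5 ± 2.12 in the orc1bah pair and 26.5 ± 0.707 in the orc1P179A pair. Kos3 peaks averaged 15 ± 5.66, 6 ± 2.83 and 7.5 ± 2.12 in the same order. All 8 allele libraries lay below both wild-type libraries of their precipitation. The mean difference was −8.375 peaks (adjusted p = 0.0178, exact permutation test within precipitations, 12 libraries, unadjusted p = 0.00444, the smallest possible). It was −8.5 for Orc1 and −8.25 for Kos3, where 4 against 2 libraries cannot give an exact p below 0.0667. The difference lay mostly in weak peaks. Among peaks with a −log10 q of at least 10 the mean difference over both precipitations was −0.25 (adjusted p = 0.689, exact permutation test). Orc1 lists held 24 and 23 such peaks in the wild-type pair, 26 and 25 in the sir2 pair, 25 in the kos3 list, 25 and 24 in the orc1bah pair, and 24 in each orc1P179A list. Kos3 lists held 4 and 3 in the wild-type pair, 3 and 2 in the orc1bah pair and 2 in each orc1P179A list. That mean thus joined Orc1 counts that were no lower in the alleles and Kos3 counts that were no higher. Since lists hold no reads, a difference in depth and a difference in weak binding cannot be told apart.

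Covered length differed between wild type and the alleles in both precipitations too. Orc1 peaks covered 42.6 and 67.6 kb in the wild-type pair, 31.4 and 32.5 kb in the orc1bah pair, and 30.5 and 29.5 kb in the orc1P179A pair. The sir2 lists covered 34.3 and 31.5 kb and the kos3 list 34.1 kb, so all 7 mutant lists lay below both wild-type lists. Kos3 peaks covered 14.4 and 15.1 kb in the wild-type pair, 3.36 and 4.41 kb in the orc1bah pair and 4.45 and 4.22 kb in the orc1P179A pair. Over both precipitations the mean difference was −17.4 kb (adjusted p = 0.0178, exact permutation test). One wild-type Orc1 peak of 31273 bp on chromosome 5 weighs on this value. It counted at its full length, with the part that lies inside the stretch left out. Without the second wild-type Orc1 library the difference was −11.2 kb (adjusted p = 0.0267), and without chromosome 5 from 46 kb it was −7.29 kb (adjusted p = 0.0185, both exact permutation tests).

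Orc1 peaks were denser here than in the interior. Wild-type Orc1 lists held 3.42 ± 0.0645 peaks per 100 kb against 2.54 ± 0.142 in the interior (SD, n = 2). The sir2 lists held 2.92 ± 0.258 against 2.68 ± 0.0810, orc1bah 2.87 ± 0.194 against 2.59 ± 0.0709, orc1P179A 2.42 ± 0.0645 against 2.35 ± 0.0608, and kos3, the one exception to the direction, 2.83 against 2.88. The mean difference within a library was 0.324 peaks per 100 kb (adjusted p = 0.0188, exact sign-flip permutation test, 9 libraries, higher in 8). Most of it came from one stretch: without chromosome 5 from 46 kb it was 0.0941 (adjusted p = 0.576, exact test). The libraries called against the second input alone gave 0.331 (adjusted p = 0.0833, exact test; 5 libraries cannot give an unadjusted p below 0.0625).

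The excess lay on the side of the chromosome end. Summed over the 9 Orc1 lists, 81 peaks lay at 20 to 40 kb, 116 at 40 to 60 kb, 64 at 60 to 80 kb and 25 at 80 to 100 kb, on 271, 279, 268 and 278 kb. At 20 to 60 kb the density exceeded the interior by 1.40 peaks per 100 kb (adjusted p = 0.0119), and at 60 to 100 kb it fell short, by −0.764 (adjusted p = 0.0119, both exact sign-flip permutation tests over 9 libraries). The median fold did the reverse, since the authors' fold of the median peak differed from that of the interior by −1.05 at 20 to 60 kb (adjusted p = 0.0446) and by 1.71 at 60 to 100 kb (adjusted p = 0.0119, both exact tests). Over the whole 20 to 100 kb the difference in median fold was 0.172 (adjusted p = 0.643, exact test). The 9 libraries read the same arms, so these p-values measure agreement among libraries and not spread among arms. Chromosome 5 from 46 kb, the source of most of the excess over 20 to 100 kb, was kept in these values. Wild-type lists had 13 Orc1 peaks each at 20 to 40 kb, and the mutant lists 6 to 10.

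**Figure D2:**
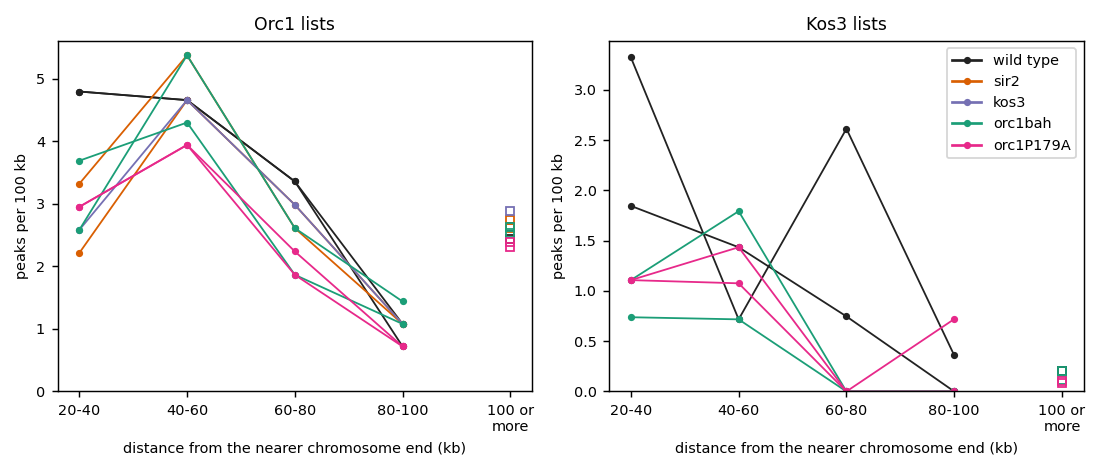
Peaks per 100 kb in 20-kb steps from the nearer chromosome end (points and lines, 1 line per library, coloured by genotype) for Orc1 (left) and Kos3 (right), with the density 100 kb or more from the ends as open squares. In every Orc1 list the density fell from 60 kb inwards, to between 2 and 4 peaks per library at 80 to 100 kb.

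Kos3 peaks were few, and denser here than in the interior in all 6 lists. Wild-type lists held 1.37 ± 0.516 peaks per 100 kb against 0.201 in each interior, orc1bah 0.547 ± 0.258 against 0.158 ± 0.0608, and orc1P179A 0.684 ± 0.194 against 0.0931 ± 0.0101 (SD, n = 2). The mean difference was 0.716 (adjusted p = 0.0417, exact sign-flip permutation test, 6 libraries, unadjusted p = 0.0313, the smallest possible). Leaving out any library gave 0.553 to 0.810, and 5 libraries cannot pass the threshold. Without chromosome 5 from 46 kb the difference was 0.346 (adjusted p = 0.05, exact). Of the 57 Kos3 peaks, 25 lay at one site on chromosome 5 and 17 at one site on chromosome 4. The chromosome 5 site spans 48121 to 79393, the extent of a single wild-type Orc1 peak. Its Kos3 peaks numbered 7 and 6 in the wild-type pair, reaching 67404 and 64908. In the allele lists they numbered 2 to 5 and reached at most 54542.

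The 343 peaks formed 59 sites. Of these, 52 held an Orc1 peak, 15 held a Kos3 peak and 7 held Kos3 alone, each of the last in a single list. In 23 of the 52 Orc1 sites (44.2%) all 9 Orc1 lists had a peak; over all distances on chromosomes 1 to 7 that share was 46.6%. Another 24 sites appeared in a single list of either precipitation, with folds of 1.54 to 2.68 and a median of 2.03. Only 1 site, on chromosome 5, had a peak in all 15 lists.

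**Figure D3:**
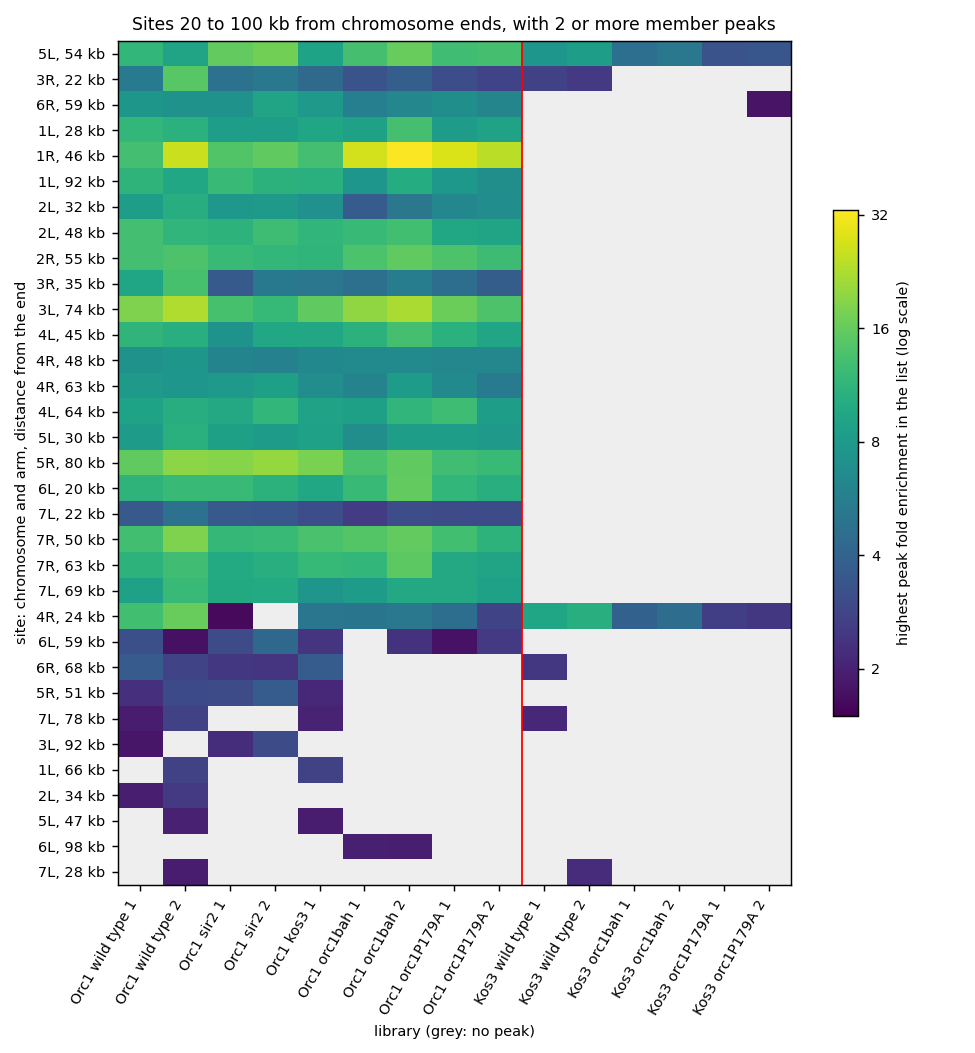
The authors' fold enrichment of the highest peak (colour, log scale) in each library (columns; Orc1 left of the red line, Kos3 right) at sites with 2 or more member peaks (rows, named by chromosome, left or right arm and distance from the end); grey means no peak. The upper block is filled across the 9 Orc1 lists and nearly empty for Kos3, and the sites at 5L, 54 kb and 4R, 24 kb are the ones with Kos3 peaks in all 6 lists. At 3R, 22 kb the second wild-type value belongs to a wide peak with its midpoint nearer the end.

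A core of 20 sites had a peak inside the limits in all 9 Orc1 lists, and at 19 of them the summits of the 9 lists lay within 1 kb of each other. The summit range at these 19 sites was 8 to 303 bp, with a median of 93 bp, and the site length 1240 to 2547 bp, with a median of 1749 bp. Their folds ran from 2.56 to 32.4 with a median of 9.67, and the lowest −log10 q was 12.1. Kos3 had no peak at 18 of the 19. The Kos3 lists were short at all distances, with 28 to 100 peaks on chromosomes 1 to 7, and the same count for the interior is not given. The 19 sites lay on 13 of 14 arms, at most 2 per arm. They numbered 5, 7, 5 and 2 in successive steps of 20 kb from 20 to 100 kb. Their density was 1.73 per 100 kb, against 2.09 for 146 such sites of the interior, a difference that was not tested.

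The summits of this core lay between genes more often than inside them, at 15 of the 19, where 22.8% of the bases lie outside annotated genes. Among wild-type Orc1 sites, found in both wild-type lists, 22 of 29 summits (75.9%, Wilson interval 57.9 to 87.8%) lay outside genes, and 121 of 161 (75.2%) did in the interior. A tRNA gene lay within 1 kb of the summit at 4 of the 59 sites, 1 of them a core site, and the arms held 9 tRNA genes. The share over all distances is not given here, so this count cannot be called high or low. Of 9 silencing genes looked for by symbol, 4 (SIR1, SIR2, SIR4 and ORC1) had a place on chromosomes 1 to 7 in the RefSeq table. Of these SIR1 alone lay at this distance, 79.96 kb from the end of chromosome 5 and inside the stretch left out.

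The strongest wild-type Orc1 sites were ordered by the mean percentile of their fold within both lists. The first lay between ACT1, the actin gene, and SND2 (chr3:73768-75378). Its folds were 18.3 and 22.9 in the wild-type pair, 13.4 and 12.0 in the sir2 pair, 15.5 in the kos3 list, 19.8 and 22.3 in the orc1bah pair, and 16.5 and 13.9 in the orc1P179A pair. Among 167 Orc1 sites found in all 9 lists at least 20 kb from the ends, it ranked 9 and 3 in the wild-type pair, 20 and 38 in the sir2 pair, 16 in the kos3 list, 3 and 4 in the orc1bah pair, and 6 and 12 in the orc1P179A pair. The sir2 and kos3 ranks and 1 of the orc1P179A ranks lay below both of wild type. Ranks in this fixed set were used because a fold is a value of its own list, and the set was chosen after the data were seen.

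The second lay in TDEL0E05490, beside SEC27, which encodes a coatomer subunit (chr5:1005784-1007808). Its folds were 15.5 and 19.3 in the wild-type pair, 18.7 and 20.2 in the sir2 pair, 17.8 in the kos3 list, 13.5 and 15.5 in the orc1bah pair, and 12.9 and 12.3 in the orc1P179A pair. Its ranks were 14 and 11 in the wild-type pair, 3 in both sir2 lists, 10 in the kos3 list, 22 and 27 in the orc1bah pair and 31 and 24 in the orc1P179A pair. The sir2 and kos3 lists, called against the first input, thus placed it above the wild-type ranks, and all 4 allele lists, called against the second, below them; this difference was not tested.

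The third lay between MSH3, a mismatch repair gene, and CDC39, which encodes the scaffold of the CCR4-NOT complex (chr1:1370585-1372551). It held the highest fold of all, 32.4 in the second orc1bah list. Its folds split by input and equally by the presence of Kos3-V5, which cannot be told apart. They were 13.1 to 15.5 in the 4 libraries called against the first input, with ranks of 13 to 28, and 23.9 to 32.4 in the 5 called against the second, with rank 1 in each. The 2 wild-type libraries fell on both sides, at 13.1 and 25.7. Of the 19 core sites, 3 had ranks that did not overlap between the inputs, against 22.8% over all 167 sites. The others lay between GAS4 and SKP2 (chr1:91075-92831) and in MSS4, a phosphatidylinositol phosphate kinase gene (chr6:1010374-1012122), and both ranked lower against the second input.

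Other sites of the 10 strongest lay between TDEL0G04820 and BIO5 (chr7:890262-892113, wild-type folds 13.0 and 18.2) and between CAB3 and TDEL0B07410 (chr2:1298421-1300967, 13.2 and 13.9). Further ones lay in PTH1 (chr2:47275-48897, 13.1 and 11.5) and between TDEL0G04800 and TDEL0G04810 (chr7:877058-878808, 11.1 and 12.7). The mutant folds at these 4 sites ranged from 9.12 in an orc1P179A list at PTH1 to 15.8 in an orc1bah list beside BIO5. At the last of them, the ranks of 55 and 51 in the wild-type pair stood against 58 and 57 in the sir2 pair, 37 in the kos3 list, 42 and 31 in the orc1bah pair, and 66 and 63 in the orc1P179A pair. The orc1bah and kos3 ranks were above those of wild type, and both ranks of sir2 and of orc1P179A below.

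The remaining sites of the 10 were the FRE4 site described below and a pair at the limits. The site between TDEL0F00160 and TDEL0F00170 straddled the 20 kb limit, with midpoints of 19.8 to 20.2 kb, and 4 of its 9 Orc1 peaks counted as inside (folds 9.52 to 15.7 over all 9). At the 100 kb limit, in KCC4 on chromosome 3, a single orc1bah peak counted as inside, at 99.7 kb with a fold of 2.18. It lay on the flank of an Orc1 peak seen in all 9 lists at 100.3 to 100.5 kb, where folds were 14.5 and 10.6 in the wild-type pair, 11.9 and 13.9 in the sir2 pair, 13.1 in the kos3 list, 6.46 and 7.05 in the orc1P179A pair, with 5.52 and 5.96 in the orc1bah pair.

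**Figure D4:**
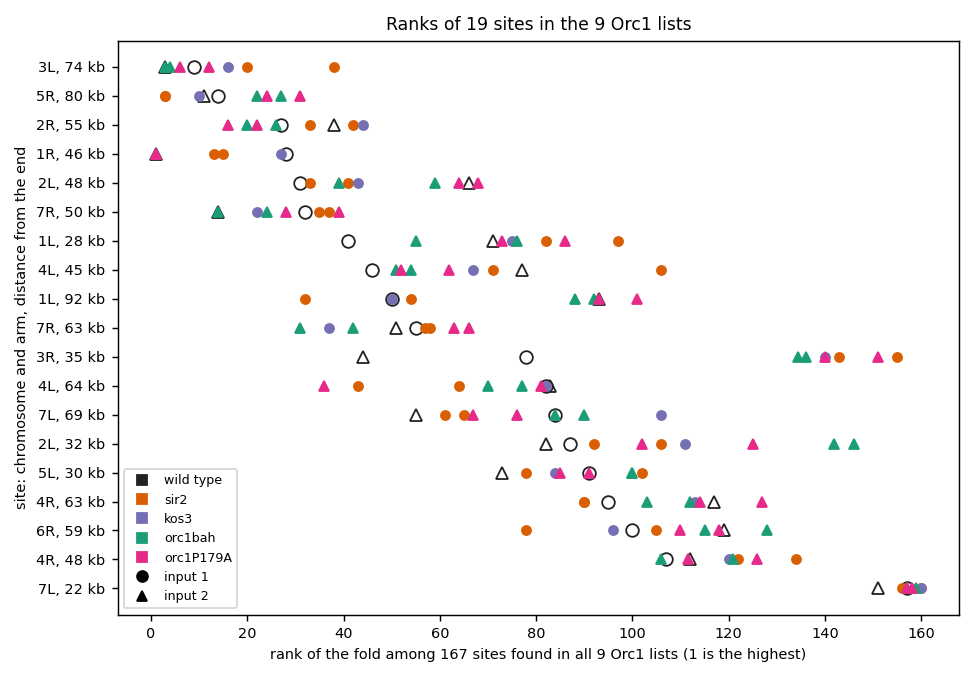
Rank of the fold among 167 sites found in all 9 Orc1 lists (x axis, 1 is the highest) at 19 sites (y axis), 1 symbol per library; open black symbols are wild type, colours are mutants, circles are libraries of the first input and triangles of the second. At 3R, 35 kb and 2L, 32 kb every mutant lies to the right of both wild-type symbols, and at 1R, 46 kb all 5 triangles lie at rank 1.

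At 2 of the 19 core sites all 7 mutant libraries ranked below both wild-type libraries, against 6.59% over the 167 sites, and none of the 19 had all mutants above (1.8% over the 167). At 3 of the 19 different mutants moved in opposite directions, against 29.9% over the 167, or at 2 with kos3 left out, against 15.6%. One lay between SPB1, an rRNA methyltransferase gene, and KAR4, a regulator of mating genes (chr3:1255846-1257833). Its folds were 9.23 and 13.5 in the wild-type pair, 3.62 and 5.21 in the sir2 pair, 5.12 in the kos3 list, 4.69 and 5.59 in the orc1bah pair, and 4.58 and 3.74 in the orc1P179A pair. Its ranks were 78 and 44 in the wild-type pair and 134.5 to 155 in the mutants. Its peaks also differed in width. They covered 1147 and 1988 bp in the wild-type pair, 486 and 601 bp in the sir2 pair, 416 bp in the kos3 list, 719 and 387 bp in the orc1bah pair, and 436 and 490 bp in the orc1P179A pair.

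The other lay between TDEL0B00160 and TDEL0B00170 (chr2:31474-32713). Its folds were 8.52 and 10.3 in the wild-type pair, 7.84 and 7.95 in the sir2 pair, 7.15 in the kos3 list, 3.70 and 5.12 in the orc1bah pair, and 6.24 and 6.86 in the orc1P179A pair. Its ranks were 87 and 82 in the wild-type pair, 92 to 111 in sir2 and kos3, and 102 to 146 in the alleles. A weak wild-type peak beside it, inside TDEL0B00170 (chr2:33652-33989, folds 1.94 and 2.54), was missing from every mutant list.

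Most wild-type Orc1 sites were found again in each mutant. Of 29, every library of the mutant had 26 in the sir2 pair (89.7%), 28 in the kos3 list (96.6%), 24 in the orc1bah pair (82.8%) and 25 in the orc1P179A pair (86.2%). In the interior, of 161 sites, the counts were 155, 156, 151 and 152. Missing from every library were 2 of 29 in the sir2 pair, 1 in the kos3 list and 4 in each allele, where the shares over all distances were 5.77%, 5.29%, 7.69% for orc1bah and 5.29% for orc1P179A. Among sites with a −log10 q of at least 10 the share found was 91.7% in sir2, 95.8% in both alleles and 100% in kos3.

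Both alleles lacked the same 4 sites, all of them weak. A site between TOP3, a topoisomerase gene, and TDEL0F05390 (chr6:1002346-1003084) had folds of 3.62 and 2.82 in the wild-type pair, 2.49 and 2.41 in the sir2 pair and 3.68 in the kos3 list. A site between TDEL0E05590 and TDEL0E05600 (chr5:1036093-1036663) had 2.30 and 3.02 in the wild-type pair, 3.07 and 3.67 in the sir2 pair and 2.12 in the kos3 list. These 2 of 29 sites were present in all sir2 and kos3 lists and in none of the 4 allele lists, against 1.92% over all distances. The third, in FKS3, a glucan synthase-related gene (chr7:77500-78036), had 1.89 and 2.76 in the wild-type pair and 2.04 in the kos3 list and was missing from sir2 as well. The last was the weak site in TDEL0B00170.

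Few sites appeared in every library of a mutant and in no wild-type list. In sir2 and orc1P179A 0 sites did, where 0.472% and 0.236% of sites did over all distances. In kos3 2 did, in NDI1, an NADH dehydrogenase gene (chr2:44950-45162, fold 2.17), and between RPN10 and MET5 (chr4:83499-83725, fold 2.40), against 7.31%. In orc1bah 1 did, between TDEL0F00570 and a tRNA gene (chr6:98284-98585, folds 1.97 and 1.94), against 1.18%. No Kos3 site was gained in orc1bah (0.472% over all distances) or in orc1P179A (0%). Counted over single lists, 11 of the 52 Orc1 sites (21.2%) had a peak in a wild-type list and in no mutant list, against 17.6% over all distances, and 10 (19.2%) had one in a mutant list and in no wild-type list, against 25.4%. Of the 11, 8 lay at 20 to 40 kb, and 1, the weak site in TDEL0B00170, was in both wild-type lists, 1.92% of the 52 sites against 1.3% over all distances. None of the wild-type peaks inside the limits at the 11 sites passed a fold of 2.54.

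Of the 4 wild-type Kos3 sites, 2 were found in every list of both alleles, on chromosomes 4 and 5, and the other two, side by side on the right arm of chromosome 3, in none. Over all distances 34.6% of wild-type Kos3 sites were missing from orc1bah and 30.8% from orc1P179A. Of these 4 sites, 3 overlapped a wild-type Orc1 site, against 80.8% over all distances. The remaining one overlapped an Orc1 peak in the second wild-type list only.

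The chromosome 4 site lay in FRE4, named for a ferric reductase gene of Saccharomyces cerevisiae, between SEO1 and TDEL0D06610 and about 24 kb from the right end (chr4:1192139-1197383). Orc1 folds were 13.0 and 16.2 in the wild-type pair, 5.02 in the kos3 list, 5.01 and 5.18 in the orc1bah pair, and 4.61 and 2.82 in the orc1P179A pair. In sir2 the first list had a peak of 1.62 and the second none. Both wild-type folds were above every mutant fold, and sir2 was lowest. Within its list the wild-type peaks stood at the 86.1 and 91.6 percentile of folds on chromosomes 1 to 7, kos3 at 42.0, the alleles at 22.9 to 42.4 and the sir2 peak at 0.806.

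Kos3 folds at this site were 9.19 and 10.4 in the wild-type pair, 3.94 and 4.50 in the orc1bah pair, and 2.68 and 2.48 in the orc1P179A pair. The genotypes did not overlap, and each orc1P179A list lay below both orc1bah lists. Wild-type Kos3 summits lay 22 to 75 bp from those of Orc1. The wild-type Orc1 summits were at 1192447 and 1192449, with kos3 at 1192443 and sir2 at 1192417. In orc1bah they were at 1192320 and 1192323 and in orc1P179A at 1192349 and 1192322. Kos3 summits were at 1192425 and 1192374 in the wild-type pair and between 1192320 and 1192325 in all 4 allele lists.

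The site began at almost the same base in every list that had it and ended at different ones. The first peak began between 1192139 and 1192181 in all 14 lists. Towards the chromosome end, Orc1 peaks covered 4575 and 5245 bp in the wild-type pair, 368 bp in the sir2 list, 1058 bp in the kos3 list, 945 and 663 bp in the orc1bah pair, and 1432 and 400 bp in the orc1P179A pair. Kos3 peaks covered 3611 and 4487 bp in the wild-type pair, 750 and 1404 bp in the orc1bah pair, and 1521 and 936 bp in the orc1P179A pair. Wild type was the widest in both precipitations.

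**Figure D5:**
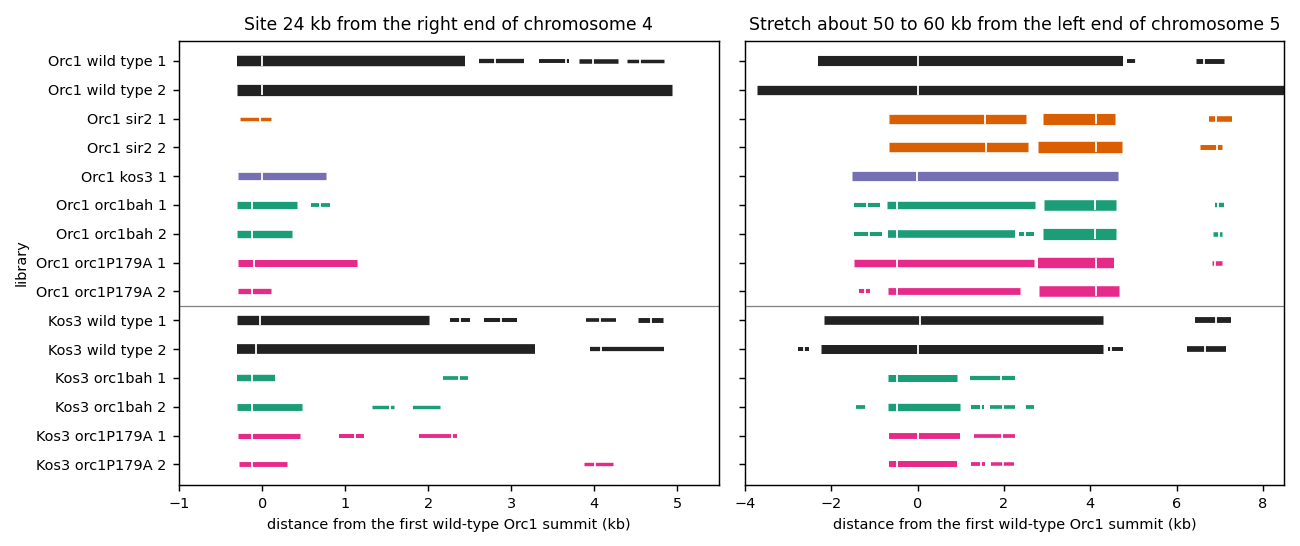
Peaks of each library (bars, with thickness rising with the fold and a white tick at the summit) at the site 24 kb from the right end of chromosome 4 (left) and in a stretch of the left arm of chromosome 5 (right), as distance in kb from the first wild-type Orc1 summit. Colours are genotypes. Wild-type bars are the longest, and in the second wild-type Orc1 list the chromosome 5 bar runs beyond the right edge of the plot. The summits of both orc1 alleles on the left lie just before 0.

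The site found in all 15 lists lay between TDEL0E00260 and TDEL0E00270 on the left arm of chromosome 5, next to the stretch left out. From 49 to 57 kb, Orc1 peaks covered 7290 and 8001 bp in the wild-type pair, 4841 and 5165 bp in the sir2 pair, 6158 bp in the kos3 list, 5732 and 5613 bp in the orc1bah pair, and 5936 and 5155 bp in the orc1P179A pair. All mutants covered less than both wild-type lists. Kos3 peaks covered 6473 and 7152 bp in the wild-type pair, 2609 and 3005 bp in the orc1bah pair, and 2611 and 2448 bp in the orc1P179A pair, and here too the groups of wild type and alleles did not overlap. The second wild-type Orc1 list held 1 peak from 48121 to 79393, which sets the span of the site and reaches into the stretch left out.

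The position of the highest Orc1 peak in this stretch split the genotypes. In wild type and kos3 a single wide peak had its summit at 51841, 51845 and 51835, with folds of 11.6, 9.16 and 9.03. In sir2 the highest peak had its summit at 55984 and 55968, with folds of 15.6 and 17.1, and a second peak at 53413 and 53429, with folds of 9.20 and 9.48. In orc1bah the highest was at 55959 and 55952 (folds 13.2 and 16.0), with a second at 51368 and 51367 (folds 5.25 and 5.56). In orc1P179A it was at 55969 and 55967 (folds 12.8 and 13.3), with a second at 51367 and 51365 (folds 5.24 and 4.33). All 6 lists of sir2 and the alleles thus had a narrow peak with its summit between 55952 and 55984 that was not called as a peak of its own in wild type or kos3, where the wide peak covers that position.

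The highest Kos3 summits lay in the left part of the stretch. In wild type its summits were at 51886 and 51845, at most 45 bp from those of Orc1, with folds of 7.57 and 8.37. In orc1bah they were at 51359 and 51361, with folds of 4.64 and 5.14. In orc1P179A they were at 51849 and 51367, with folds of 3.32 and 3.44. No Kos3 list of the alleles had a peak over 55952 to 55969, where their Orc1 lists had the summit of the highest one. The wide Kos3 peaks of wild type (49673 to 56145 and 49613 to 56140) covered those positions. Farther in, both wild-type Kos3 lists had a peak at 58.5 to 58.7 kb (58263 to 59099 and 58077 to 58987, folds 3.28 and 3.18), and the 4 allele lists had none there. Further wild-type Kos3 peaks within the span of the site reached 67404 and 64908, and those of the alleles ended by 54542.

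The other wild-type Kos3 sites lay side by side on the right arm of chromosome 3, between VAC17, a gene of vacuole inheritance, and HMLALPHA2, a gene of the silent mating-type locus HML. Between VAC17 and TDEL0C06990 (chr3:1269436-1270809) Kos3 folds were 2.75 and 2.53 in the wild-type pair. Orc1 had peaks there in all 9 lists, with folds of 5.31 in the first wild-type list, 4.84 and 5.15 in the sir2 pair, 4.35 in the kos3 list, 3.29 and 3.83 in the orc1bah pair, and 3.13 and 2.79 in the orc1P179A pair. In the second wild-type list a single peak of 12376 bp, with its summit nearer the end at 1276176 and a fold of 14.7, covered the site. The second of them, in TDEL0C06990 at the 20 kb limit (chr3:1271476-1271850), had Kos3 folds of 2.10 and 2.01 in the wild-type pair, the second from a peak with its midpoint just outside. Its only Orc1 peak was the wide one of the second wild-type list.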

How the data were processed

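The data were 15 lists of chromatin immunoprecipitation (ChIP-seq) peaks, 1 per library; the input libraries had no peak list of their own. The submitters' processing notes name Bowtie2 2.3.4.1 and MACS2 2.2.7.1 without a role, peak names hold the word subsample per the file headers and lines of the deposited lists, and filters, threshold and genome build are not given in the sources used here. For each peak the authors deposited a start, end and summit (used), an integer score (not used, as it repeats the q-value), a fold enrichment, a linear ratio over background (used), a −log10 p-value (not used) and a −log10 q-value (used). The lowest deposited −log10 q was 1.31, so weaker peaks were not analysed here. Lists hold no reads, so depth is unknown and no value was adjusted for it; the 33 to 726 peaks per list limit the precision.

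Peaks were kept if their midpoint lay 20 to 100 kb from the nearer end of chromosomes 1 to 7, outside 68 to 82 kb on chromosome 5 and 31 to 41 kb on chromosome 7. Peaks linked by an overlap of at least 1 bp formed a site; any peak overlapping a site's span counted as presence there. Coordinates are 1-based, and the starts and summits of the lists, taken as 0-based, were converted. Gene names came from the RefSeq table of assembly ASM24337v1, which holds no strand and was matched by chromosome: wild-type Orc1 summits (−log10 q at or above 10) lay outside genes in 68.8% to 87.3% of cases on their own chromosome, and in at most 37.5% with the genes of another. Sites were named by a rule: the 10 strongest wild-type Orc1 sites, the 6 strongest wild-type Kos3 sites, up to 5 sites in all 15 lists, and up to 5 lost and 3 gained sites per mutant. Tests were exact two-sided permutation tests over libraries (Python 3.11.15, scipy 1.17.1), adjusted over 8 tests by the Benjamini-Hochberg method with a threshold of 0.05, and were tested on simulated data. Alternatives were stricter q-values, other distance limits, both stretches kept, 1 input only, each library left out, stricter sharing, equal peak numbers, a replicate block and, added after seeing the data, leaving out chromosome 5 from 46 kb. Intervals of shares are Wilson 95% intervals and cover counting error only. The members, lists and tests were chosen with earlier results of these data known.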

Additional observations from a re-analysis of the deposited data

Results flagged for a closer look

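Of the 19 core Orc1 sites, 3 (15.8%) moved in opposite directions in different mutants, in every library of each, when ranked among the 167 sites found in all 9 Orc1 lists; over those 167 sites the share was 29.9%. Leaving out kos3, which has a single library, the count was 2 (10.5%), against 15.6%. At the site in TDEL0E05490 the mean rank differed from wild type by −9.5 in sir2, by −2.5 in kos3, by 12 in orc1bah and by 15 in orc1P179A, where a positive value is a lower fold rank. At the site between TDEL0G04800 and TDEL0G04810 it differed by 4.5 in sir2, by −16 in kos3, by −16.5 in orc1bah and by 11.5 in orc1P179A. At the site between CAB3 and TDEL0B07410 it differed by 11.5 in kos3, by −9.5 in orc1bah and by −13.5 in orc1P179A. The differences between mutants were not tested. The sir2 and kos3 libraries were called against the first input and the allele libraries against the second, each with 1 wild-type library. In TDEL0E05490, wild type ranked 14 with the first input, against 3 in both sir2 lists and 10 in kos3. With the second input wild type ranked 11 there, against 22 to 31 in the alleles. Beside CAB3, the first input gave 27 in wild type, 33 and 42 in sir2 and 44 in kos3. The second gave 38 in wild type and 16 to 26 in the alleles. The part of the input in these differences was not tested. Between TDEL0G04800 and TDEL0G04810 the alleles differed from each other, and so did sir2 and kos3, within 1 input.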

How the results depend on the processing

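Kos3 against Orc1 kept its direction and call under all 20 alternatives for peak number and for covered length, and the alleles against wild type did so for covered length; for peak number the one exception was a −log10 q of at least 10 (−0.25 peaks). Leaving out 1 library gave −23.7 to −21 peaks and −35.5 to −27.2 kb for Kos3 against Orc1, and −10.4 to −6.38 peaks and −23.6 to −11.2 kb for the alleles. The excess density of Orc1 was 0.331 with the second input alone, 0.0941 without chromosome 5 from 46 kb and −0.764 at 60 to 100 kb; without 1 library it was 0.247 to 0.371. That of Kos3 was 0.216 at 60 to 100 kb, 0.716 with the second input alone (adjusted p = 0.05, exact test; its own p stayed at 0.0313), 0.346 without chromosome 5 from 46 kb and 0.553 to 0.810 without 1 library. The difference in median Orc1 fold was 0.575 at a −log10 q of at least 10, −1.05 at 20 to 60 kb, 1.71 at 60 to 100 kb, −0.0285 with both stretches kept, −0.243 with the second input alone and 0.0708 to 0.385 without 1 library. That of Kos3, −0.0255, turned to 0.147 and 1.75 at a −log10 q of at least 5 and 10, to 0.0227 at 20 to 60 kb, to 0.101 with both stretches kept and to 0.0950 without the second orc1bah library (−0.147 to 0.0950 over all libraries left out). Shares of wild-type Orc1 sites found were 66.7 to 93.1% in sir2, 75.7 to 76.9% in kos3, 61.5 to 86.2% in orc1bah and 64.1 to 86.2% in orc1P179A without 1 library; the lowest came without a wild-type library, since all sites of the other then count. With the second input alone they were 61.5% and 64.1% in the alleles, at a −log10 q of at least 10 they were 95.8% in both, and in kos3 100% at a −log10 q of at least 5 or 10, at 60 to 100 kb and with equal peak numbers. Of wild-type Kos3 sites 100% were found in both alleles at a −log10 q of 10 or more, and 25 to 50% without 1 library. The share was also 100% at 60 to 100 kb, but any peak overlapping a site's span counted there. The wild-type Orc1 peak of 31273 bp, from 48121, stretched that span over allele peaks nearer the end. Both orc1bah lists and the first orc1P179A list had 0 Kos3 peaks at 60 to 80 and at 80 to 100 kb. The overlap of wild-type Kos3 sites with Orc1 was 100% at a −log10 q of at least 5 or 10, with the second input alone and with summits within 200 bp. It was 100% at 60 to 100 kb too, by the same rule of spans, 25% with equal peak numbers and 60 to 100% without 1 library. Wild-type Orc1 summits outside genes were 66.7 to 67.6% without 1 library. Apart from these constructions, the cause of each move was not tested. A replicate block changed no call (−22.3 and −8.375 peaks, −31.4 and −17.4 kb). Same-numbered libraries deviated together with correlations of −0.259 to 0.0937 over the 167 sites, so the numbers do not pair the samples. Depth is unknown, and absence of a weak peak from a list does not show absence of binding.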
